A study of Saccharomyces cerevisiae with 72 samples.

Results

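Yeast cells that lack the kinase Gcn2 still carry a working GCN4 gene, whereas gcn4 cells have no Gcn4 protein at all, and both were treated with rapamycin. The 8 arrays of this comparison were the 4 of the gcn2 deletion strain KY654 and the 4 of the gcn4 deletion strain KY656. Both strains were treated for 1 h with 200 nM rapamycin, and their arrays were found by genotype and treatment among the 72 of the study, which covered 6 genotypes and 3 treatments in 18 groups of 4, hybridised with labelled RNA from whole cultures. The study set the general amino acid control against the TOR pathway, and this comparison asks what Gcn4 still does without Gcn2 when TORC1 is inhibited. The gcn4 strain was not deleted for GCN2, so the strains differ in both genes. Effects of losing Gcn2 and of losing Gcn4 cannot be told apart in a difference between them.

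Arrays of the same strains without a stress treatment, and after 1 h with the histidine synthesis inhibitor 3-AT (aminotriazole) at 10 mM, served to show whether a difference was tied to rapamycin. The gcn2gln3 double deletion strain KY641 and the gcn4gln3 double deletion strain KY643, in rapamycin, gave the same difference without the nitrogen activator Gln3. Wild type KY652 in rapamycin, with both Gcn2 and Gcn4, gave the level of each gene in cells with an intact pathway. All groups grew in synthetic dextrose medium with ammonium sulfate and every amino acid except histidine. Each genotype was 1 strain, and its other alleles and its mating type are not in the labels. The labels do not say either whether the 4 arrays of a group came from separate cultures, so the p-values below measure only the spread between these arrays.

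Gcn2 is a protein kinase that senses uncharged tRNA and phosphorylates the translation factor eIF2, which lets ribosomes reach the GCN4 reading frame past short upstream frames. The Gcn4 made in this way activates genes of amino acid, vitamin and purine synthesis, of aminoacyl-tRNA synthetases and of amino acid carriers. Rapamycin, bound to Fpr1, inhibits TORC1, which is known both to restrain Gcn2 and to keep Gln3 in the cytoplasm when nitrogen is plentiful. Cells without Gcn2 make Gcn4 at a basal level, and the arrays read mRNA, so they show the targets of Gcn4 and not its protein.

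The median signal of the 8 arrays was 325 to 365, their background (the 30th percentile of each array's signals) 80.9 to 105, and the mean correlation of an array with the others of its group 0.964 to 0.982. The ratio of the 3' to the 5' actin probe sets, which grows as RNA is broken, was 4.13 on gcn4 array 1 and 1.41 to 2.01 on the other 7, and gcn4 array 1 also had the lowest correlation. Among the double deletion arrays in rapamycin, gcn2gln3 array 1 and gcn4gln3 array 2 had very high ratios, as did 1 gcn2gln3 array with 3-AT. The ratio reached 230 on these 3, against at most 5.03 on the other 69 arrays. Results that rest on the double mutants therefore name the fit they come from, with all 72 arrays or with those 69. Signals were scaled by the authors to a common mean on each array, so a change in total mRNA per cell cannot be seen.

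GCN4 mRNA was near the floor in the strain deleted for it, whereas GCN2 mRNA was lower but still read in the strain deleted for it. GCN4 had signals of 16841, 15904, 18025 and 18330 in gcn2 cells, against 30.7, 3.85, 21.1 and 15 in gcn4 cells, none of which was above background. It was at least 196-fold higher in gcn2 cells, a bound because the gcn4 signal was set no lower than the dimmest signal above background (limma, adjusted p = 2.6e-22). In wild type the signals were 23622, 19487, 20093 and 20418. The difference gcn2 minus wild type was -0.27 ± 0.29 on the log2 scale (± standard error, as for all differences here; adjusted p = 0.73; 95% interval -0.86 to 0.31), with an error that also pools the gcn4 arrays near the floor. GCN2 mRNA read 141, 95.1, 111 and 123 in gcn2 cells and 237, 229, 280.2 and 281 in gcn4 cells, without overlap (-1.14 ± 0.15, adjusted p = 1.2e-05), and stayed above background on all 4 gcn2 arrays. Whether its probes lie inside the deleted part is not known from the sources used here, so GCN2 checks the label less firmly than GCN4. GLN3, which encodes the nitrogen activator that rapamycin releases, read 263, 256, 237 and 280.2 in gcn2 cells and 198, 185, 182 and 189.9 in gcn4 cells, again without overlap (0.46 ± 0.14, adjusted p = 0.046).

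**Figure D1:**
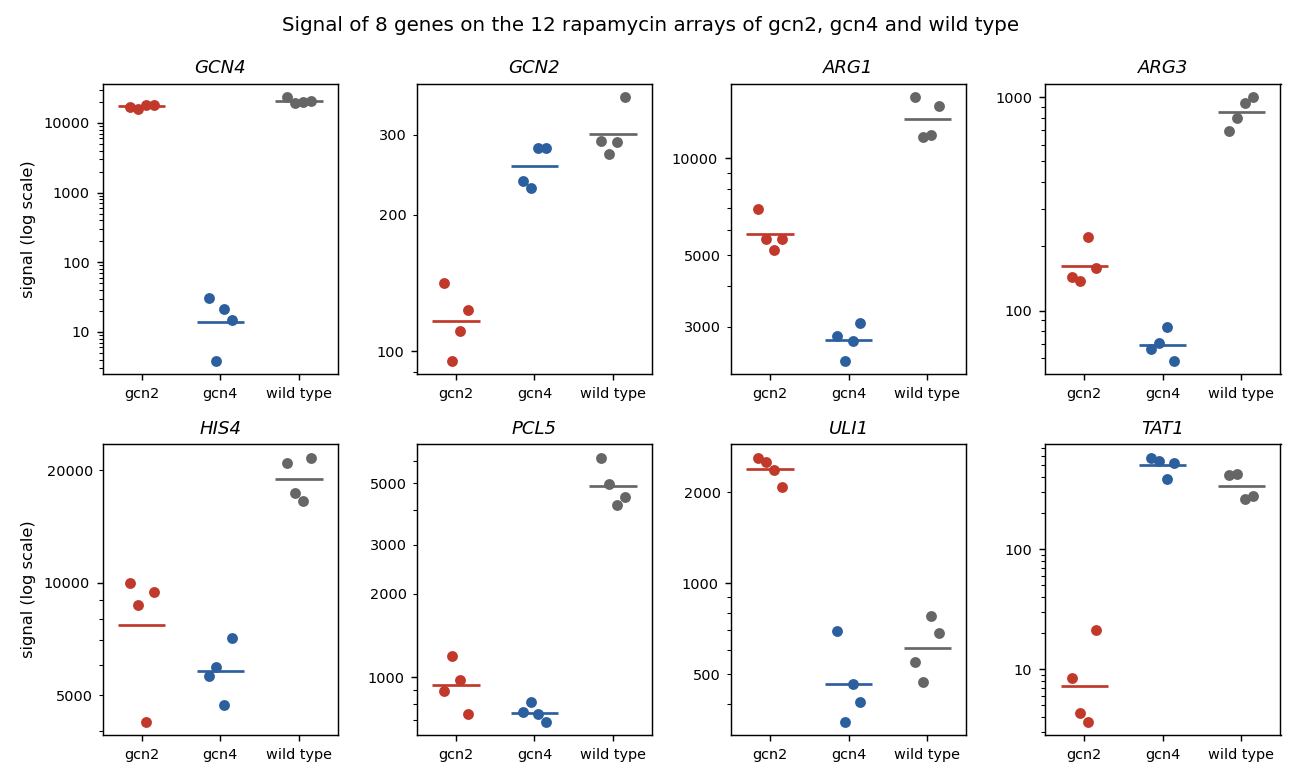
Signal (linear MAS5 values on a log axis) of 8 genes on each rapamycin array of gcn2, gcn4 and wild type, 4 arrays a group. Each point is 1 array and the line is the group mean on the log scale. GCN4 is near the floor in gcn4 cells, GCN2 is lowest in gcn2 cells, ARG1 and ARG3 in gcn2 cells lie between gcn4 and wild type, and HIS4 and PCL5 overlap between gcn2 and gcn4. ULI1 is highest in gcn2 cells, and TAT1 is below background in gcn2 cells.

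Of 6637 probe sets tested, 451 (6.8%) differed between gcn2 and gcn4 cells in rapamycin, 250 of them higher in gcn2 cells (3.77%) and 201 lower (3.03%), at a limma adjusted p under 0.05 over all probe sets. With same-numbered arrays as a block, 718 passed, 351 higher and 367 lower, with all 451 among them in the same direction. When each array was centred on its median, 318 were higher and 110 lower. Of the 451, 58 were at least 2-fold higher and 17 at least 2-fold lower. The median change over all probe sets was -0.04 (log2), and the signals of the 4 and 4 arrays did not overlap for 800 probe sets (12.1%). Named single genes made up 313 of the 451 (125 higher, 188 lower), and 1371 probe sets were under an unadjusted p of 0.05.

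**Figure D2:**
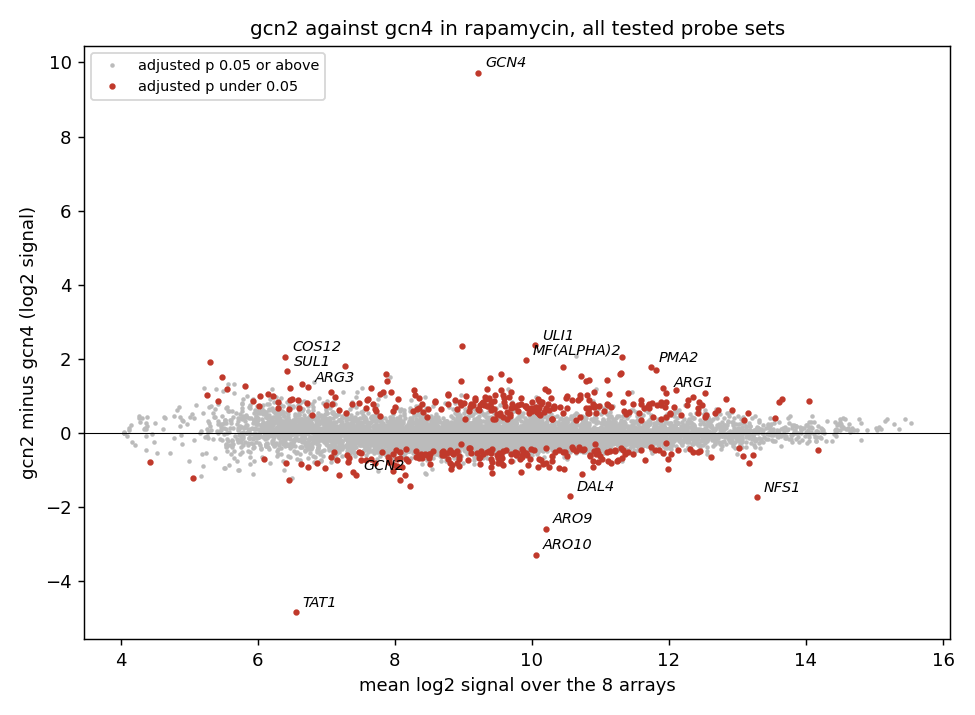
Difference gcn2 minus gcn4 in rapamycin (log2 signal, y axis) against the mean log2 signal over the 8 arrays (x axis) for the 6637 probe sets tested. Red points are the 451 at a limma adjusted p under 0.05. GCN4 stands apart at the top and TAT1, ARO10 and ARO9 at the bottom, while most red points lie within 1 log2 unit of 0.

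Most amino acid biosynthesis genes did not pass between gcn2 and gcn4 cells in rapamycin, although most were lower in gcn2 cells than in wild type. Of the 7 histidine genes none passed between gcn2 and gcn4 (median 0.10, with 6.8% of all probe sets passing and a median of -0.04). Against wild type 5 of the 7 were lower in gcn2 cells (median -1.26; 6.18% of all probe sets passed in that comparison, 3.5% lower; with the replicate block, 655 probe sets passed in place of 410, with all 410 among them). HIS4, which encodes an enzyme of 3 steps of histidine synthesis, read 9963, 8697, 4243 and 9458 in gcn2 cells, 5635, 5947, 4700.5 and 7118 in gcn4 cells and 20945, 17354, 16552 and 21618 in wild type. One gcn2 array lay below all 4 gcn4 arrays, and the difference of 0.41 ± 0.19 did not pass (adjusted p = 0.22, 95% interval 0.02 to 0.80). None of the 9 lysine genes passed either (median -0.26), against 8 of 9 lower than in wild type (median -1.15). Without gcn2 array 3, 1 histidine gene was higher, and 1 lysine gene was higher and 1 lower. The 2 comparisons use the same 4 gcn2 arrays, so their values are set side by side here and not correlated.

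Among the amino acid synthesis lists, arginine had the highest median difference between gcn2 and gcn4 cells. Of its 8 genes, 2 were higher in gcn2 than in gcn4 cells (median 0.25), against 3.77% of all probe sets, and 1 was with all 72 arrays. All 8 were lower than in wild type (median -1.42), where 3.5% of all probe sets were lower. ARG1, for argininosuccinate synthetase, a much used reporter of Gcn4, had signals of 6939, 5595, 5199 and 5607 in gcn2 cells and 2798, 2350.2, 2718 and 3088 in gcn4 cells. Every gcn2 array was above every gcn4 array, a difference of 1.09 ± 0.16 (adjusted p = 3.3e-05). Wild type was higher still at 15496, 11605, 11802 and 14561 (gcn2 minus wild type -1.19 ± 0.16, adjusted p = 1.4e-06). ARG3, for ornithine carbamoyltransferase, read 144, 138, 220.2 and 159 in gcn2 cells, against 66.4, 70.8, 84 and 58.1 in gcn4 cells and 697, 801, 939 and 1004 in wild type. No gcn4 array was above background, so gcn2 cells were at least 1.84-fold higher (adjusted p = 0.00024), and gcn2 minus wild type was -2.39 ± 0.20. The other 6 arginine genes, among them CPA1 for carbamoyl phosphate synthesis (0.29 ± 0.12) and ORT1 for ornithine export from mitochondria (-0.11 ± 0.16), lay between -0.11 and 0.34, and none passed.

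Branched-chain, aromatic and aspartate-family synthesis had 1 or 2 members each above the gcn4 level, against 3.77% of all probe sets. Among the 12 branched-chain genes, LEU9, a minor isopropylmalate synthase (0.82 ± 0.17, adjusted p = 0.0031) and LEU2, for the dehydrogenase of leucine synthesis (0.50 ± 0.15, adjusted p = 0.036), were higher. Other LEU2 probe sets, at 0.36 and 0.63, did not pass. LEU2 is often a strain marker, and its alleles are not in the labels. BAT2, the cytosolic branched-chain aminotransferase (-0.53 ± 0.14, adjusted p = 0.024), was lower. The median was 0.20, and 9 of the 12 were lower than in wild type (median -0.88), where 3.5% of all probe sets were lower. The 2 higher calls became 1 without gcn4 array 1, gcn2 array 2, gcn2 array 4 or gcn4 array 4, and BAT2's was lost without gcn4 array 1, gcn4 array 2, gcn2 array 3 or gcn2 array 4. LEU1, which encodes isopropylmalate isomerase, passed only with the replicate block (0.57 ± 0.18, adjusted p = 0.055 without and 0.022 with it). Among 12 aromatic genes ARO1, the enzyme of 5 steps of the shikimate pathway, was higher (0.54 ± 0.09, adjusted p = 0.00024; list median -0.08), against 8 lower than in wild type (median -0.95). ARO7 (-0.41) and TRP1 (-0.32) were lower with the replicate block (adjusted p = 0.025 and 0.048) and did not pass without it (0.12 and 0.093). Among 9 genes of aspartate, threonine and asparagine synthesis HOM3, for aspartate kinase, read 824, 760.2, 685 and 912 in gcn2 cells and 636, 423, 394 and 446 in gcn4 cells (0.76 ± 0.18, adjusted p = 0.0079). HOM2, for the next enzyme, differed by 0.53 ± 0.10 (adjusted p = 0.0013). HOM3 did not overlap between the groups, and its list had a median of 0.21, against 6 members lower than in wild type (median -0.70). With only the 8 arrays fitted, the branched-chain and aspartate lists had 1 higher gene each and the aromatic list 0. With all 72 arrays the counts were 1, 0 and 0 in that order. BAT2 did not pass in either fit.

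**Figure D3:**
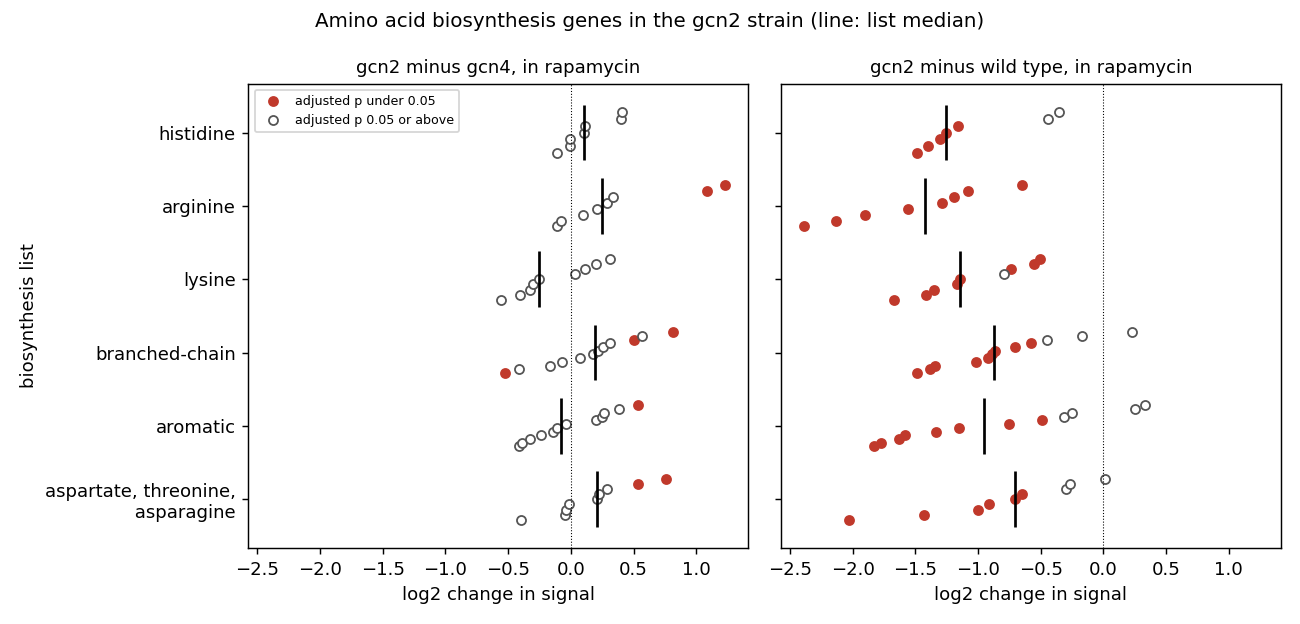
Difference in rapamycin (log2 signal, x axis) of each gene of 6 amino acid biosynthesis lists (rows), gcn2 minus gcn4 on the left and gcn2 minus wild type on the right. Filled points passed the limma test and the bar is the list median. The medians lie between -0.26 and 0.25 against gcn4, and between -1.42 and -0.70 against wild type.

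Other known Gcn4 targets also lay near the gcn4 level in gcn2 cells. PCL5, which encodes the cyclin that marks Gcn4 for breakdown, read 892, 1197, 976 and 736 in gcn2 cells and 749, 813, 735 and 692 in gcn4 cells, against 6178, 4949, 4168 and 4465 in wild type. The gcn2 and gcn4 arrays overlapped (0.33 ± 0.18, adjusted p = 0.32, 95% interval -0.05 to 0.70), while gcn2 minus wild type was -2.38 ± 0.18 (adjusted p = 1.6e-11). None of 21 aminoacyl-tRNA synthetase genes passed between gcn2 and gcn4 (median -0.07), against 6 lower than in wild type. None of 16 purine and one-carbon genes and none of 12 serine and glycine genes passed between gcn2 and gcn4, although IMD2, for guanine nucleotide synthesis, was lower with the block (-0.48, adjusted p = 0.067 without and 0.017 with it). Against wild type, 2 of the 16 were higher in gcn2 cells and 1 lower (median 0.06), and 3 of the 12 were lower (median -0.04). The medians of the purine and serine lists thus lay near wild type too. Over all probe sets 2.68% were higher and 3.5% lower in gcn2 cells than in wild type. SNZ1, for vitamin B6 synthesis, differed by 0.11 ± 0.16 (adjusted p = 0.75, 95% interval -0.21 to 0.43), with gcn2 signals of 1758 to 2229 and wild type signals of 7032 to 7713.

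Vitamin and sulfur genes also held members above the gcn4 level, against 3.77% of all probe sets. Of 16 vitamin and cofactor genes 5 were higher in gcn2 cells (median 0.26) and none lower. They were BIO5, for the transport of biotin precursors, BIO4, for dethiobiotin synthesis, the thiamine genes THI7, for uptake, and THI20, for synthesis, and RIB1, for riboflavin synthesis. BIO5 had signals of 3959.5, 3248, 3083 and 4321 in gcn2 cells and 1580.1, 995, 1298 and 1556 in gcn4 cells (1.44 ± 0.25, adjusted p = 0.00051), with no overlap, and lay -0.93 ± 0.25 from wild type. BIO3, for the step before BIO4, passed only with the replicate block (0.51 ± 0.17, adjusted p = 0.065 without and 0.0040 with it). Leaving out gcn2 array 4 left 1 of the 5 calls, leaving out gcn2 array 1 or gcn4 array 2 left 2, and leaving out gcn4 array 3 left 3. Untreated, 5 of the 16 genes were higher, against 1.52% of all probe sets.

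Of 24 sulfur assimilation and methionine genes 3 were higher in gcn2 cells and 1 lower (median 0.23), while 1 was higher and 7 lower than in wild type. Over all probe sets 3.77% were higher and 3.03% lower in gcn2 than in gcn4 cells, and 2.68% higher and 3.5% lower than in wild type. MET17, which joins sulfide to O-acetylhomoserine, had signals of 10667, 9807, 9875 and 9964 in gcn2 cells and 5199, 5147, 4884 and 6046 in gcn4 cells, and 10976, 12320, 10582 and 12378 in wild type. The gcn2 arrays were all above the gcn4 arrays (0.93 ± 0.10, adjusted p = 1.9e-07), and gcn2 minus wild type was -0.20 ± 0.10 (adjusted p = 0.32, 95% interval -0.40 to 0.01). SUL1, a sulfate permease gene, read 175, 162, 149 and 130.5 in gcn2 cells, against 40.3, 45.1, 66.5 and 44.2 in gcn4 cells. None of the gcn4 arrays was above background, so gcn2 cells were at least 1.74-fold higher (adjusted p = 2.4e-05). MET10, a sulfite reductase subunit gene, was higher by 0.44 ± 0.14 (adjusted p = 0.045). STR2, for cystathionine synthesis, was lower (-0.54 ± 0.14, adjusted p = 0.014) and also lower than in wild type (-1.83 ± 0.14). The other 20 members did not pass. The STR2 call was lost without gcn2 array 4 or gcn4 array 4. Untreated, 3 of the 24 genes were higher and none lower, against 1.52% of all probe sets higher.

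Apart from GCN4, the genes that stood highest in gcn2 over gcn4 cells were mostly outside the amino acid pathways. ULI1, named for its induction by the unfolded protein response, had signals of 2605, 2512, 2369 and 2089 in gcn2 cells and 698, 349, 464 and 406 in gcn4 cells, and 549.7, 473, 779 and 683 in wild type. It was higher in gcn2 cells than in gcn4 cells (2.37 ± 0.23, adjusted p = 1.8e-08) and than in wild type (1.97 ± 0.23, adjusted p = 1.1e-07), with no overlap with either. COS12, of a family of similar subtelomeric genes, read 151, 239, 169 and 146 in gcn2 cells and 47.9, 41.1, 47 and 31.8 in gcn4 cells, the gcn4 signals not above background. It was at least 1.96-fold higher in gcn2 cells (adjusted p = 1.6e-06) and lay 1.27 ± 0.25 from wild type (adjusted p = 0.00073). The autophagy gene ATG41 read 2254, 2418, 3812 and 3272 in gcn2 cells, against 561, 936, 1391 and 1301 in gcn4 cells and 10910, 9076, 8004 and 9321 in wild type. It was higher in gcn2 than in gcn4 cells (1.54 ± 0.30, adjusted p = 0.0016) and lower than in wild type (-1.69 ± 0.30), as ARG1 and BIO5 were.

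Carbohydrate transport and stress genes were among the others. HXT5, a hexose transporter gene of slow growth, differed by 1.77 ± 0.31 (adjusted p = 0.00048). PMA2, a plasma membrane proton pump gene, differed by 1.78 ± 0.24 (adjusted p = 1.1e-05) and GRE1, a stress gene, by 1.60 ± 0.18 (adjusted p = 4.8e-07). HXT6 (1.23 ± 0.30, adjusted p = 0.011) is nearly identical to HXT7, so its probe set may read both. VEL1, of unknown function, differed by 1.59 ± 0.26 (adjusted p = 0.00015). Of 26 general stress genes 6 were higher in gcn2 than in gcn4 cells and none lower (median 0.34), against 3.77% of all probe sets higher. None of the 26 passed against wild type (median -0.12). ALD3, an aldehyde dehydrogenase gene, read 1222, 767, 1165 and 1449 in gcn2 cells, 434, 352, 310.1 and 566 in gcn4 cells and 1184, 787, 1314 and 1451 in wild type. CTT1, for cytosolic catalase, read 1488, 1893, 2906 and 1979 in gcn2 cells, 1044, 1032, 889.5 and 1216 in gcn4 cells and 2438, 2424, 2560.2 and 2293 in wild type. For both, the gcn4 arrays lay below all gcn2 and all wild type arrays. Leaving out gcn2 array 3 or 4 left 3 of the 6 calls, leaving out gcn4 array 1 left 4. The fit of all 72 arrays gave 1. Untreated, 4 of the 26 were higher (median 0.21), against 1.52% of all probe sets.

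Of 26 folding genes of the heat shock response 3 were higher in gcn2 cells (median 0.21), all 3 for the Hsp70 system, against 3.77% of all probe sets. The count was 6 with the replicate block and 0 with all 72 arrays. The 3 were the Hsp70 genes SSA3 (1.42 ± 0.27, adjusted p = 0.0013) and SSA4 (0.90 ± 0.15, adjusted p = 0.00034) and STI1, an adaptor of Hsp90 and Hsp70 (0.67 ± 0.19, adjusted p = 0.025). SSA4 read 7303, 5607, 6803 and 7592 in gcn2 cells and 4045, 3171, 4004 and 3389.5 in gcn4 cells, without overlap. In the phosphate list 2 of 11 genes were higher, against 3.77% of all probe sets. They were PHO84, the high-affinity phosphate transporter gene (1.42 ± 0.37, adjusted p = 0.018, signals overlapping on 1 gcn2 array), and SPL2 (1.20 ± 0.24, adjusted p = 0.0023), which lowers low-affinity uptake. The count was 3 with the block and 1 without gcn2 array 1, gcn4 array 3 or gcn2 array 4. In the iron list 2 of 19 were higher, against 3.77% of all probe sets, TIS11, which lowers mRNAs of iron-using proteins (1.01 ± 0.24, adjusted p = 0.011), and the reductase gene FRE1 (0.58 ± 0.18, adjusted p = 0.044). The iron count was 1 without gcn4 array 1, 2 or 4 or gcn2 array 2, 3 or 4, and 0 with all 72 arrays. None of 19 glycolysis genes passed, nor did any of 26 autophagy genes in a list that does not hold ATG41, of which 1 was higher with the block. Untreated, 1 of the 26 folding genes, 3 of the 11 phosphate genes and 4 of the 19 iron genes were higher, against 1.52% of all probe sets. The phosphate median was 0.30 untreated and 0.13 in rapamycin, and the iron median 0.42 and 0.20.

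The genes furthest below the gcn4 level were for the uptake and breakdown of aromatic amino acids. TAT1, a permease gene for tyrosine and branched-chain amino acids, read 8.39, 4.34, 3.66 and 21.3 in gcn2 cells, never above background, against 581, 545, 384 and 522 in gcn4 cells and 416, 425, 262 and 280.4 in wild type. It was at least 5.2-fold lower in gcn2 than in gcn4 cells (adjusted p = 5.7e-14) and at least 3.5-fold lower than in wild type. In untreated cells it read 19.8, 1.22, 9.67 and 18.5 in gcn2 and 1614, 1663, 1165 and 1234 in gcn4. In the double deletions with rapamycin it read 11, 2.64, 9.4 and 15.8 in gcn2gln3 and 852, 399.8, 626 and 988 in gcn4gln3. Every array of a strain without GCN2 shown here was below the arrays it was set against. Of its neighbours in the RefSeq gene order, BAP2 on one side did not pass (adjusted p = 0.99). ALG14 (-0.81, adjusted p = 0.0027) and YBR071W (-0.77, adjusted p = 0.0023) on the other side were lower in rapamycin but did not pass untreated (-0.08 and -0.28).

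ARO10 and ARO9 encode the decarboxylase and the aminotransferase of aromatic amino acid breakdown. ARO10 read 393, 205, 411 and 410.1 in gcn2 cells, against 3132, 2572, 4400.4 and 3482 in gcn4 cells and 3449, 2985, 3296 and 3200.2 in wild type. ARO9 read 528, 353, 684 and 419.9 in gcn2 cells, against 2337, 2512, 4418 and 2687 in gcn4 cells and 3002, 4078, 4338 and 2948 in wild type. Both were lower in gcn2 cells with no overlap. The ARO10 difference was -3.29 ± 0.25 against gcn4 (adjusted p = 8.1e-11) and -3.24 ± 0.25 against wild type. That of ARO9 was -2.59 ± 0.23 against gcn4 (adjusted p = 3.4e-09) and -2.88 ± 0.23 against wild type. In gcn2 cells these 3 genes were thus below both other strains, one of which has GCN4 and one of which does not. The gaps to gcn4 were there without rapamycin too. Untreated, ARO10 differed by -2.875 (limma adjusted p = 9.8e-10) and ARO9 by -2.06 (adjusted p = 2e-07).

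NFS1, the cysteine desulfurase gene of iron-sulfur cluster synthesis, read 5458, 6887, 5288 and 4476 in gcn2 cells, against 14694, 19635, 18114 and 20726 in gcn4 cells and 5254, 6699.7, 6253 and 4296 in wild type. It differed by -1.73 ± 0.18 between gcn2 and gcn4 (adjusted p = 1.3e-07) and by -0.02 ± 0.18 between gcn2 and wild type (95% interval -0.40 to 0.35), so the gcn4 strain stood above both. Untreated, NFS1 was lower in gcn2 than in gcn4 cells as well (-2.40, limma adjusted p = 5.3e-11). Its RefSeq neighbours are LEU2 (0.50 ± 0.15 in rapamycin, adjusted p = 0.036; a second LEU2 probe set at 0.36 did not pass) and DCC1 (0.10 in rapamycin, adjusted p = 0.82). Genes often used as strain markers differed too, and the labels do not give the strains' marker alleles. Of 8 auxotrophic and marker genes 3 were higher in gcn2 than in gcn4 cells with rapamycin, against 3.77% of all probe sets. URA3 read 1291, 1091, 874 and 1256 in gcn2 cells and 557, 462, 478 and 510.2 in gcn4 cells with rapamycin (1.16 ± 0.14, adjusted p = 2.4e-06). Untreated it read 1614, 1526, 1134 and 1427 in gcn2 and 625, 629.9, 498 and 582 in gcn4 (1.28 ± 0.14, adjusted p = 2e-07), again without overlap.

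Of the genes under nitrogen catabolite repression, the main targets of Gln3 in rapamycin, 3 passed, all of them allantoin genes. Of 14 such permease genes 1 was lower and none higher in gcn2 cells (median -0.15), and of 15 catabolic genes 2 were lower. Over all probe sets 3.03% were lower. DAL4, the allantoin permease gene, read 727, 861, 862 and 891 in gcn2 cells and 3049.5, 2286, 2329 and 3286 in gcn4 cells (-1.70 ± 0.23, adjusted p = 1.5e-05), without overlap. DAL7, a malate synthase gene (-1.04 ± 0.24, adjusted p = 0.0076), and DAL2, for allantoicase (-0.72 ± 0.22, adjusted p = 0.045), were the others. GAP1, the general amino acid permease gene, differed by -0.12 ± 0.21 (adjusted p = 0.80, 95% interval -0.54 to 0.31) and MEP2, an ammonium permease gene, by -0.04 ± 0.16 (adjusted p = 0.93, 95% interval -0.38 to 0.30). The urea transporter gene DUR3 passed only with the replicate block (-0.57 ± 0.18, adjusted p = 0.051 without and 0.036 with it), as did MEP3, an ammonium permease gene (-0.38, adjusted p = 0.070 without and 0.027 with it). The count of 2 catabolic genes was 1 when any 1 array other than gcn4 array 3 was left out.

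Genes that switch on at the start of the cell cycle were lower in gcn2 than in gcn4 cells. Of 24 G1/S genes 11 were lower and none higher (median -0.46, against -0.04 over all probe sets, of which 3.03% were lower). CDC45, for loading of the replicative helicase, read 229.7, 287, 139.7 and 148 in gcn2 cells, against 515, 414, 435 and 331 in gcn4 cells and 144, 183, 141 and 119 in wild type (-1.12 ± 0.21, adjusted p = 0.0012). POL30, for the sliding clamp PCNA, read 614, 569, 269 and 516 in gcn2 cells, against 1108, 983, 1000.5 and 914 in gcn4 cells and 418, 328, 222 and 274 in wild type (-1.09 ± 0.22, adjusted p = 0.0024). In both genes all gcn4 arrays were above all gcn2 arrays.

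RNR1, the large subunit gene of ribonucleotide reductase, read 2328, 2129, 1445 and 1237 in gcn2 cells, against 3054, 3399, 3452 and 2349 in gcn4 cells and 806, 806, 591 and 385 in wild type. It was lower in gcn2 than in gcn4 cells (-0.81 ± 0.24, adjusted p = 0.032) and higher than in wild type (1.48 ± 0.24, adjusted p = 3.6e-05). The gcn2 arrays overlapped neither group and lay between them. The other members that were lower were MCD1, a cohesin subunit gene (-1.04 ± 0.27), the G1 cyclin genes CLN1 (-0.47 ± 0.14), CLN2 (-0.86 ± 0.22) and PCL1 (-0.70 ± 0.16), and the S-phase cyclin gene CLB5 (-0.62 ± 0.17). The DNA ligase gene CDC9 (-0.69 ± 0.15) and the replication protein A genes RFA2 (-0.46 ± 0.14) and RFA3 (-0.75 ± 0.17) were lower as well. CLB6, also an S-phase cyclin gene, passed only with the block (-0.74 ± 0.24, adjusted p = 0.059 without and 0.043 with it), and CLN3 did not (0.11 ± 0.16, adjusted p = 0.75). Against wild type 8 of the 24 were higher in gcn2 cells (median 0.53; 2.68% of all probe sets were higher). Of 4 histone genes 1, HTB2, was lower (-0.69 ± 0.17, adjusted p = 0.012), against 3.03% of all probe sets. With the block 2 were lower, and without gcn4 array 3 none.

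The count of 11 fell to 5 without gcn4 array 1, the array with the highest actin ratio of the 8, to 6 without gcn2 array 3 or gcn2 array 4 and to 7 without gcn4 array 3. It was 7 with median centring, 4 when only the 8 arrays were fitted and 2 with all 72. The list median stayed between -0.54 and -0.37 when any 1 array was left out. An array reads the RNA of a whole culture, so fewer cells at the start of the cycle and less of these mRNAs per cell cannot be told apart. Few growth-related genes passed beside them without the block. None of 89 ribosome biogenesis genes passed (median -0.15), nor did any of 20 subunit genes of RNA polymerases I and III (median -0.28), and 3 of 81 cytosolic ribosomal protein genes were lower (median -0.02), a share near the 3.03% of all probe sets. With the block 6 ribosome biogenesis and 2 polymerase genes were lower, and the biogenesis median was 0.06 without gcn2 array 3. The count of 3 was 0 without gcn4 array 1, gcn2 array 3 or gcn2 array 4, with median centring and when only the 8 arrays were fitted, and it was 1 without gcn4 array 2 or 4. Against wild type, 17 of the 81 ribosomal protein genes were higher in gcn2 cells (median 0.40), against 2.68% of all probe sets. With the block 37 of them were higher, and 13 of the 89 biogenesis genes. The block raised the count over all probe sets in that comparison too, in either direction, from 410 to 655.

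**Figure D4:**
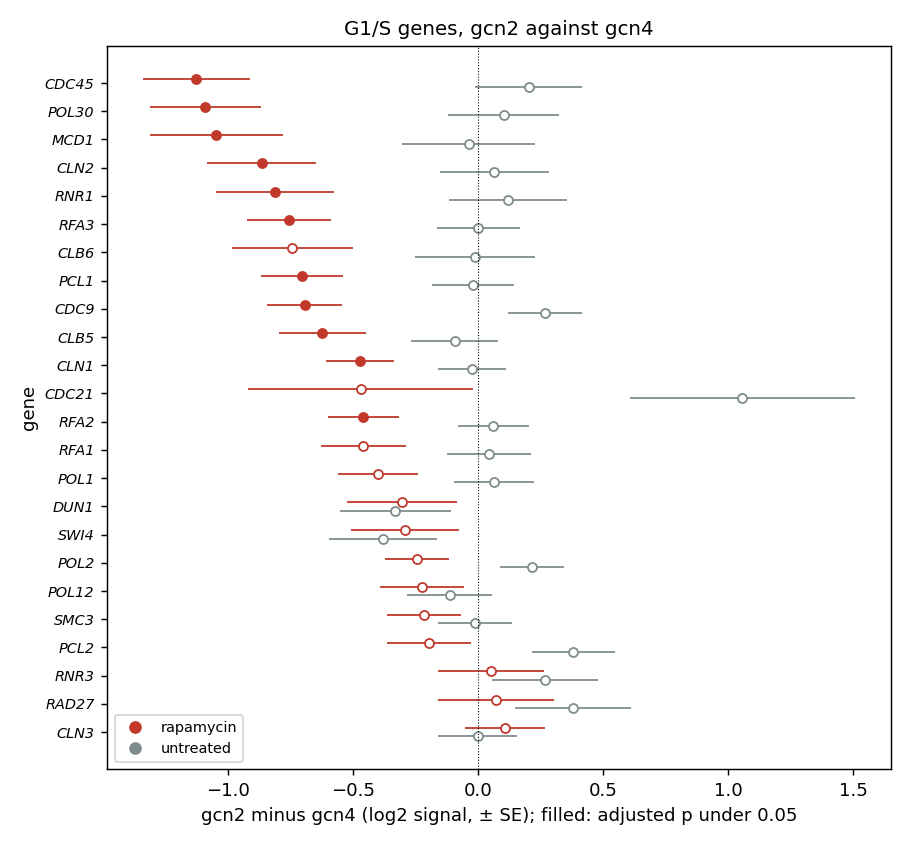
Difference gcn2 minus gcn4 (log2 signal ± standard error, x axis) of 24 G1/S genes (rows), in rapamycin (red) and untreated (grey), 4 arrays a group; filled points passed the limma test. In rapamycin 11 genes are filled and lie left of 0, and none is filled untreated.

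Most of the probe sets that were higher in gcn2 cells with rapamycin had a difference of the same sign untreated, and the G1/S genes did not stand out there. Untreated, 134 of 6637 probe sets passed between gcn2 and gcn4 (2.02%), 101 higher in gcn2 cells (1.52%) and 33 lower (0.497%). Of the probe sets higher in rapamycin 43 were also higher untreated, 17.2% of the 250 and 42.6% of the 101, and 90.4% of the 250 had a positive untreated difference, against 51.1% of all probe sets. Of those lower in rapamycin 19 were also lower untreated, 9.45% of the 201 and 57.6% of the 33, and 67.2% of the 201 had a negative untreated difference, against 48.9% of all. ARG1 read 4020.4, 3869, 3675 and 3961 in untreated gcn2 cells and 1804, 1623, 1549.5 and 1694 in untreated gcn4 cells (1.22 ± 0.16, adjusted p = 2.4e-06). Its gap in rapamycin minus its untreated gap was -0.13 ± 0.22 (adjusted p = 0.90, 95% interval -0.59 to 0.32). The G1/S list had no member that passed untreated (median 0.05).

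Whether a gap itself differed between rapamycin and no treatment was tested directly, and 25 probe sets passed (0.377%), 10 with a larger and 15 with a smaller or more negative value in rapamycin. These come from the fit without the replicate block. With it 74 passed, 24 larger and 50 smaller, with all 25 among them. ULI1 read 5854, 7123, 5910.5 and 5856 in untreated gcn2 cells and 5010.4, 3548, 4942 and 3438 in untreated gcn4 cells, a gap of 0.56 ± 0.23 (adjusted p = 0.32). The gap was 1.80 ± 0.32 wider in rapamycin (adjusted p = 0.0052). MET17 read 17901, 17614, 17192 and 17886 in untreated gcn2 cells and 15701, 16468, 13278 and 16487 in untreated gcn4 cells, and its gap was 0.73 ± 0.14 wider in rapamycin (adjusted p = 0.011). For both genes the untreated arrays of the strains did not overlap but lay closer than in rapamycin. The gap of ARO1 was 0.56 ± 0.13 higher in rapamycin (adjusted p = 0.036), that of VEL1 1.76 ± 0.36 (adjusted p = 0.017) and that of YOR387C 1.14 ± 0.23 (adjusted p = 0.017). Of the G1/S genes 2 passed, CDC45 at -1.33 ± 0.30 (adjusted p = 0.036) and CDC9 at -0.96 ± 0.21 (adjusted p = 0.029). With the block 4 passed, POL30 and CLN2 being the others. The median of the 24 was -0.52, against -0.06 over all probe sets.

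Among the smaller or more negative gaps were those of PHM8, a phosphate-starvation gene (-0.87 ± 0.16, adjusted p = 0.0086), and AXL2, a bud-site gene (-0.80 ± 0.15, adjusted p = 0.0052). HO, the mating-type switching endonuclease gene, was among them too (-2.00 ± 0.33, adjusted p = 0.0025). PHM8 read 1606, 1494, 1574 and 1496 in untreated gcn2 cells and 737, 894, 726 and 759 in untreated gcn4 cells. It read 6195, 5353, 5341 and 5406 in gcn2 cells with rapamycin and 4456, 5086, 6036 and 4968 in gcn4 cells with rapamycin. Its signals overlapped in rapamycin and not untreated. YPR145C-A (-1.76 ± 0.27, adjusted p = 0.00080) and the 5S ribosomal RNA gene RDN5-1 (-1.55 ± 0.26, adjusted p = 0.0029) also passed, and RDN5-1 is 1 of many near-identical copies that its probe set cannot separate. A second AXL2 probe set differed from the first in rapamycin (0.60 and -0.86).

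With 3-AT, which starves cells for histidine and so activates Gcn2 directly, the gap differed from that in rapamycin for 12 probe sets (0.181%). Of these, 9 had a higher and 3 a lower value in rapamycin, in the fit without the block. ARG1 was the named gene with a smaller gap in rapamycin. It read 2367, 2274, 3292 and 2451 in gcn2 cells and 549, 377, 838 and 635 in gcn4 cells with 3-AT, and its gap in rapamycin minus that with 3-AT was -1.07 ± 0.22 (adjusted p = 0.025). ULI1 read 949, 999, 1481 and 778 in gcn2 cells and 783, 738, 1026 and 738 in gcn4 cells with 3-AT, overlapping, and its gap was 2.04 ± 0.32 larger in rapamycin (adjusted p = 0.0017). MET17 (0.77 ± 0.14, adjusted p = 0.0088), SSA4 (1.21 ± 0.22, adjusted p = 0.0073), ALD3 (1.92 ± 0.36, adjusted p = 0.0096) and POT1, for fatty acid oxidation (1.55 ± 0.32, adjusted p = 0.020), also had a higher value in rapamycin. For SSA4 and ALD3 this difference exceeded the gap in rapamycin, so with 3-AT their gap had the other sign.

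The same difference was measured in strains without GLN3. Between gcn2gln3 and gcn4gln3 in rapamycin 21 of 6869 probe sets passed with all 72 arrays (0.306%), 14 higher and 7 lower in gcn2gln3, and 47 of 6792 with the 69 arrays (0.692%), 34 higher and 13 lower. The same fits called 55 and 420 between gcn2 and gcn4. Leaving out gcn4gln3 array 1, 3 or 4, while array 2 with its very high actin ratio stayed, gave 1723, 1590 or 1702 in place of 21, above the counts with GLN3 given here. The median residual SD of the 72-array fit was 0.41, against 0.26 in the 36-array fit of the single deletions and wild type. Of the 250 probe sets higher in gcn2 cells with GLN3, 19 were also higher without it on the 69 arrays (7.6% of the 250 and 55.9% of the 34). Of the 250, 78.4% had a positive difference there, against 40.8% of all. Of the 201 lower ones 7 were also lower (3.48% of the 201 and 53.8% of the 13). Of the 201, 79.6% had a negative difference, against 59.2% of all. With all 72 arrays these 2 shares were 55.6% against 55.9% and 51.7% against 44.1%, so they rest on leaving out the arrays with a very high actin ratio. All counts here are of the separate gcn2gln3 and gcn4gln3 arrays, which share none with the 8.

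The gap itself was set against that with GLN3. With all 72 arrays 9 probe sets passed (0.131%), 2 with a higher and 7 with a lower value without GLN3. With the 69 arrays 35 passed (0.515%), 9 higher and 26 lower. ARG1 read 1622, 1668, 2124 and 1647 in gcn2gln3 and 1799, 152, 1433 and 1669.6 in gcn4gln3, where the 152 is the array with a very high actin ratio. Its gap without GLN3 was 0.96 ± 0.31 with all arrays (adjusted p = 0.11) and 0.15 ± 0.17 with the 69 (adjusted p = 0.79). On the 69 arrays the gap without GLN3 minus that with GLN3 was -0.94 ± 0.23 (adjusted p = 0.031; -0.13 ± 0.44 and adjusted p = 0.89 on all 72). ARG3 differed likewise on the 69 arrays (-1.27 ± 0.31, adjusted p = 0.036; adjusted p = 0.11 on all 72). So did MET17 (-0.90 ± 0.16, adjusted p = 0.00081; adjusted p = 0.82 on all 72). For these 3 genes the smaller gap without GLN3 passed only when the 3 arrays were left out.

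HXT5 read 1801, 1396, 3053 and 2259 in gcn2gln3 and 1929.6, 2526, 4617 and 3299 in gcn4gln3, overlapping. Its gap had a lower value without GLN3 with all arrays (-2.29 ± 0.45, adjusted p = 0.013) and with the 69 (adjusted p = 0.0087). SUL1 (-1.90 ± 0.39, adjusted p = 0.017), SIP18, a stress gene (-2.35 ± 0.51, adjusted p = 0.024), URA3 (-1.31 ± 0.24, adjusted p = 0.0054) and YOR387C (-1.38 ± 0.29, adjusted p = 0.020) passed in the same direction with all 72 arrays, and with the 69 (adjusted p = 0.014, 0.0078, 2.9e-05 and 0.0078 in that order). AXL2 (1.12 ± 0.23, adjusted p = 0.020) and YIL108W (1.35 ± 0.29, adjusted p = 0.024) passed in the other, and with the 69 AXL2 passed (adjusted p = 0.014) and YIL108W did not (0.064). On the 69 arrays the gaps of the stress genes GRE1 (-2.31 ± 0.30, adjusted p = 1.4e-06) and ALD3 (-1.91 ± 0.43, adjusted p = 0.014) and the pump gene PMA2 (-2.03 ± 0.46, adjusted p = 0.015) also had a lower value without GLN3. That of DAL4 had a higher value (1.80 ± 0.40, adjusted p = 0.014). None of these 4 passed with all 72 (adjusted p = 0.42, 0.11, 0.39 and 0.14 in that order). For these genes and HXT5 the difference exceeded the gap with GLN3, so on the 69 arrays the gap without GLN3 had the other sign.

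A few of these genes also passed in the strains without GLN3. ULI1 was higher in gcn2gln3 than in gcn4gln3 with all arrays (2.14 ± 0.33, adjusted p = 3.8e-05) and with the 69 (1.27 ± 0.23, adjusted p = 0.00039). COS12 was higher with the 69 (1.16 ± 0.30, adjusted p = 0.047) and did not pass with all 72 (0.93, adjusted p = 0.11). ARO10 read 185, 78.7, 114 and 108 in gcn2gln3 and 1977, 686, 1971 and 1888 in gcn4gln3, a difference of -4.30 ± 0.25 on the 69 arrays (adjusted p = 2.9e-20) and -3.70 on all 72. That of ARO9 was -3.26 ± 0.26 (adjusted p = 1.5e-14) and -2.93 on all 72. TAT1 was at least 8.09-fold lower in gcn2gln3 than in gcn4gln3. NFS1 was lower on the 69 arrays (-1.66 ± 0.20, adjusted p = 2.6e-08; -0.99 ± 0.41 and adjusted p = 0.14 on all 72). The G1/S list had no member that passed with either set of arrays, with a median of 0.10 with all 72 and -0.08 with the 69. Its median gap without GLN3 minus that with GLN3 was 0.57 with all 72, against 0.12 over all probe sets, and 0.38 with the 69, against -0.01.

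**Figure D5:**
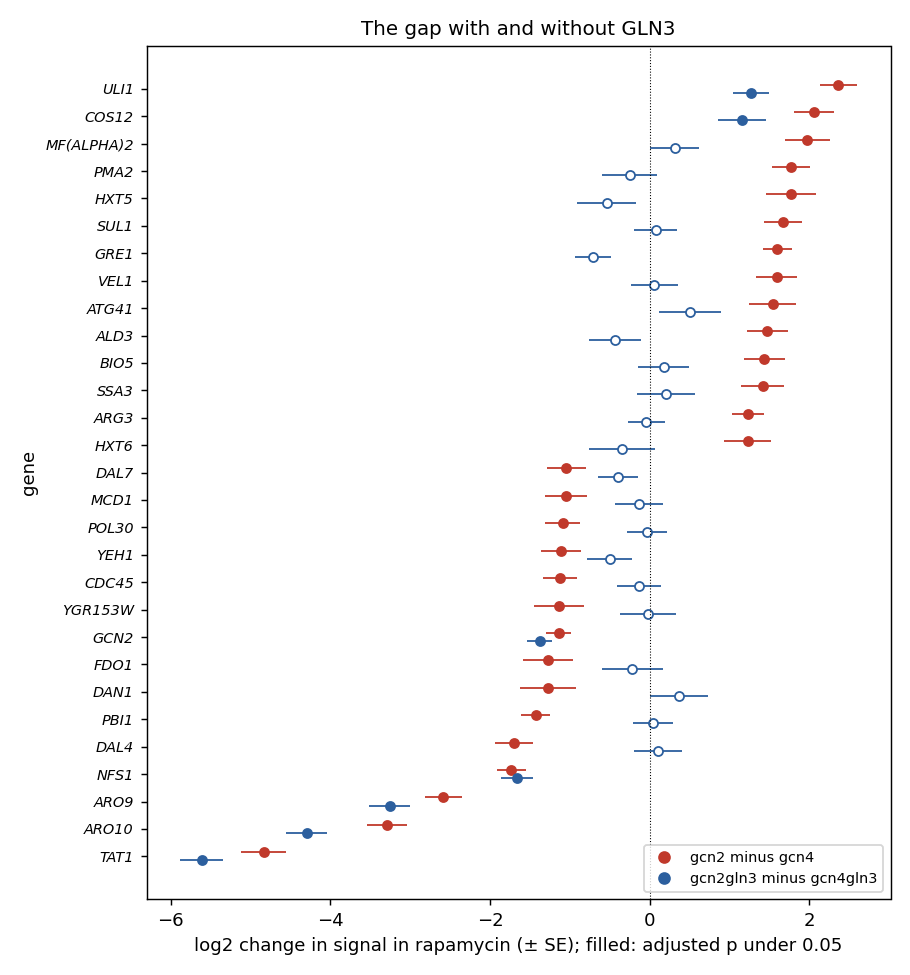
Difference in rapamycin (log2 signal ± standard error, x axis) of the genes with the largest differences by the naming rule (rows, without GCN4), gcn2 minus gcn4 (red, 36 arrays in the fit) and gcn2gln3 minus gcn4gln3 (blue, 69 arrays in the fit). Filled points passed the limma test. The red points were chosen for their size, so only the blue ones show something the choice did not fix; ULI1, COS12, GCN2, NFS1, ARO9, ARO10 and TAT1 are filled in both.

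Genes of the mating types were checked because the labels do not give the strains' type. Of 7 genes specific to a cells, 4 had enough signal to be tested, and 2 were above background on all 8 arrays. All 5 genes specific to alpha cells were above background on all 8. None of the 4 passed between gcn2 and gcn4 in rapamycin, and 1 of the 5 did, against 6.8% of all probe sets. It was MF(ALPHA)2, an alpha-factor gene, with signals of 1976, 2278, 1373 and 2169 in gcn2 cells and 527, 522, 308 and 656 in gcn4 cells (1.98 ± 0.28, adjusted p = 3e-05). SAG1, the alpha agglutinin gene, passed only with the block (0.45 ± 0.16, adjusted p = 0.097 without and 0.031 with it). MF(ALPHA)2 did not overlap between the groups, and its part in the other differences was not tested. Among 19 mitochondrial and vacuolar carrier genes 3 were lower in gcn2 cells and none higher, against 3.03% lower of all probe sets. They were CTP1, the citrate carrier gene (-0.66 ± 0.19, adjusted p = 0.029), YHM2 (-0.46 ± 0.13, adjusted p = 0.028), also a mitochondrial carrier gene, and AVT6, for amino acid export from the vacuole (-0.44 ± 0.13, adjusted p = 0.030). The count was 0 without gcn4 array 1 or gcn2 array 4 and when only the 8 arrays were fitted, and 1 without gcn2 array 3, gcn4 array 2 or gcn4 array 3, with median centring and with all 72 arrays. Of 12 vacuolar protease genes APE1, an aminopeptidase gene, was higher (0.83 ± 0.17, adjusted p = 0.0033), against 3.77% of all probe sets.

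The remaining genes furthest below the gcn4 level were PBI1 (-1.43 ± 0.18, adjusted p = 3.8e-06), FDO1 (-1.27 ± 0.31, adjusted p = 0.012), YGR153W (-1.13 ± 0.31, adjusted p = 0.025) and YEH1, a steryl ester hydrolase gene (-1.11 ± 0.25, adjusted p = 0.0063). PBI1 read 187, 179, 216 and 152 in gcn2 cells and 562, 500.3, 477 and 431 in gcn4 cells. DAN1, a cell wall mannoprotein gene, was not above background in gcn2 cells (76.5, 45.5, 55 and 53.2, against 85.7, 161, 140.1 and 179.6 in gcn4 cells) and was at least 1.41-fold lower there (adjusted p = 0.024). Their gaps without GLN3 did not pass on the 69 arrays, PBI1 at 0.04 ± 0.25 and YEH1 at -0.50 ± 0.29, nor on all 72, at -0.34 ± 0.32 and 0.04 ± 0.28.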

How the data were processed

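The authors deposited 1 table of MAS5 signal intensity per probe set for 72 yeast arrays, made with GCOS per the submitters' processing notes, and probe sets were named through the platform annotation and a RefSeq gene table. From these intensity values, 60 control probe sets were left out, and a gene with several probe sets took the one with the highest mean. Signals below 16.5 (the 10th percentile of all values) were set to it, log2 was taken with no further scaling, and probe sets above background (the 30th percentile of an array) on at least 4 arrays were tested. Differences between gcn2 and gcn4 came from limma 3.58.1 in R 4.3.3 on the 36 arrays of wild type, gcn2 and gcn4 (9 groups, 27 residual degrees of freedom), with Benjamini-Hochberg adjustment over all 6637 probe sets, and those of the double deletions from the 72 arrays. The fit was run on simulated data with independent noise on each array and changes set only in brighter probe sets. That run did not cover arrays that deviate together or changes in dim probe sets. Where a group was not above background on any array, a fold is given as a bound.

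The genes, lists and comparisons were chosen with earlier results of these data known. Named genes are the largest differences in each direction among those that passed without overlap of the 4 and 4 signals, members of the lists, and the 5 of each direction with the smallest adjusted p in each test of a difference between gaps. The gene tables hold no sequences used here.

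Same-numbered gcn2 and gcn4 rapamycin arrays deviated together (correlations of their deviations from the group means 0.507, 0.322, 0.527 and 0.210, and at most 0.0772 between other numbers), so the numbers pair these arrays, and the fit with the number as a block is given beside the count. So did the same-numbered rapamycin arrays of gcn2 and wild type (0.210 to 0.574) and the rapamycin and untreated arrays of each strain (0.119 to 0.574). The untreated gcn2 and gcn4 arrays did not all do so (0.355, 0.0260, 0.627 and -0.0203), nor did rapamycin and 3-AT arrays of gcn2 (-0.242 to 0.286). The number of arrays limits the precision.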

Additional observations from a re-analysis of the deposited data

Results flagged for a closer look

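In 14 of 224 groups of 4 rapamycin signals, 1 array lay far from the other 3, and chance gives about 1 in 20 such groups. In gcn2 cells the lone array was the lowest for HIS4 (4243), ARO3 (2185), ARO10 (205) and DAL4 (727), and the highest for SNZ1 (2229), TAT1 (21.3, below background like the others), CLN3 (2354), FRE1 (532) and PHM8 (6195). In gcn4 cells it was the lowest for ARO1 (4648), GAP1 (10613) and APE1 (5911), and the highest for HXT6 (3770) and GSH2 (1483).

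The gap between gcn2 and gcn4 differed between rapamycin and no treatment, by limma's test of that difference, for ULI1 (1.80), VEL1 (1.76), YOR387C (1.14), MET17 (0.73) and ARO1 (0.56), which had the higher value in rapamycin, and for HO (-2.00), YPR145C-A (-1.76), RDN5-1 (-1.55), PHM8 (-0.87) and AXL2 (-0.80), which had the lower. RDN5-1 has many copies, and a second probe set of it gave 0.71 for gcn2 minus gcn4 in rapamycin.

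Against 3-AT, the gap had a higher value in rapamycin for ULI1 (2.04), ALD3 (1.92), POT1 (1.55), SSA4 (1.21) and MET17 (0.77), and a lower one for ARG1 (-1.07).

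Without GLN3 the gap in rapamycin was higher than with it for YIL108W (1.35) and AXL2 (1.12), and lower for SIP18 (-2.35), HXT5 (-2.29), SUL1 (-1.90), YOR387C (-1.38) and URA3 (-1.31), with all 72 arrays. The labels do not give the strains' URA3 alleles, and URA3 read 1722, 1003, 859.9 and 1279 in gcn2gln3 and 1244, 1156, 1493 and 1345 in gcn4gln3.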

How the results depend on the processing

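Numbers in this paragraph count probe sets that passed, and the causes of their changes were not tested. Between gcn2 and gcn4 in rapamycin (451), the replicate block gave 718, the 8 arrays alone 178, all 72 arrays 55 and leaving out 1 array 208 to 423, with 208 without gcn2 array 4 and 283 without gcn2 array 3. Untreated (134), the block gave 229, the 8 arrays alone 65, all 72 arrays 57 and leaving out 1 array 89 to 134, lowest without gcn2 array 4. For the rapamycin gap minus the untreated gap (25) these were 74, 9, 3 and 9 to 28, with 12 without untreated gcn2 array 1, 14 without rapamycin gcn2 array 3, 9 without rapamycin gcn2 array 4 and 10 without untreated gcn4 array 4. For the rapamycin gap minus the 3-AT gap (12), quantile normalization gave 22, median centring 19, the block 59, all 72 arrays 1 and leaving out 1 array 7 to 16, with 7 without rapamycin gcn2 array 3. For gcn2 minus wild type (410) the block gave 655, only the compared arrays 265, all 72 arrays 143 and leaving out 1 array 296 to 469. Its calls were 178 higher and 232 lower, and 130 and 267 with median centring. Between the double deletions (21), quantile normalization gave 45, median centring 37, a filter on all compared arrays 12, the block 103, the compared arrays alone 3, the 69 arrays 47 and leaving out 1 array 6 to 1723. For the gap without GLN3 minus that with GLN3 (9) the block gave 40, the 69 arrays 35, the compared arrays alone 0 by limma (92 at an unadjusted p under 0.05) and leaving out 1 array 2 to 125. The double-deletion counts were 1723, 1590 and 1702 without gcn4gln3 array 1, 3 or 4, while array 2 with its very high actin ratio stayed, 74 without array 2, and 6 and 12 without gcn2gln3 array 3 or 4. The last difference had 30, 24, 125 and 42 without gcn4gln3 array 1, 2, 3 or 4, 15 and 2 without gcn2gln3 array 1 or 2, 5 and 3 without gcn4 array 2 or 3, and 4 without gcn2 array 4.

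For 112 named genes, 2122 alternatives were run on gcn2 minus gcn4 in rapamycin: 1833 kept the call, 258 lost it, 30 gained it and 1 reversed. The reversed one was the second AXL2 probe set, at 0.60. Of 80 named genes that passed, 26 passed under every alternative run, and 44 under all but the fits of all 72 arrays and of the 8 arrays alone. Signals near background limit TAT1, SUL1, ARG3, COS12 and DAN1 to bounds. Untreated gcn2 and gcn4 arrays were not all paired by number, though each strain's rapamycin and untreated arrays were, so the untreated block result is a count only.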

Other observations

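Genes of protein folding in the endoplasmic reticulum were looked at because ULI1 is named for the unfolded protein response, and they were chosen after their values were seen. ERO1, the oxidase of disulfide formation, read 854, 888, 668 and 813 in gcn2 cells with rapamycin, against 509.9, 482, 395 and 313 in gcn4 cells and 619.6, 572, 397 and 686 in wild type. It was higher in gcn2 than in gcn4 cells (0.94 ± 0.19, limma adjusted p = 0.0018), without a difference that passed untreated (0.06 ± 0.19, adjusted p = 0.98). SIL1, an exchange factor for the chaperone Kar2 (0.92 ± 0.14, adjusted p = 8.9e-05; untreated 0.03), and MPD1, a disulfide isomerase gene (0.90 ± 0.23, adjusted p = 0.014; untreated -0.08), were higher as well, and both were above wild type (0.87 ± 0.14 and 1.02 ± 0.23). KAR2, the main chaperone gene of this compartment, differed by 0.42 ± 0.14 (adjusted p = 0.060, and 0.033 with the replicate block), PDI1, for the main disulfide isomerase, by 0.26 ± 0.12 (adjusted p = 0.23), and EUG1, also of that family, by 0.43 ± 0.13 (adjusted p = 0.040). LHS1 (0.37 ± 0.17, adjusted p = 0.22), JEM1 (0.32 ± 0.18, adjusted p = 0.32) and SCJ1 (0.21 ± 0.12, adjusted p = 0.32) complete the 9 genes looked at.

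Genes of NAD synthesis from tryptophan, also chosen after their values were seen, split in the same comparison. BNA2, for the first enzyme of the pathway, read 1814, 1735, 2344 and 2506 in gcn2 cells and 685, 890.5, 1655 and 1178 in gcn4 cells (0.99 ± 0.25, adjusted p = 0.013). BNA5, for kynureninase (1.11 ± 0.16, adjusted p = 3.7e-05; untreated 1.25), and BNA1, for 3-hydroxyanthranilate dioxygenase (0.79 ± 0.14, adjusted p = 0.00034; untreated 0.92), were higher too, and BNA1 lay -1.52 ± 0.14 from wild type. BNA4 (0.01 ± 0.23, adjusted p = 0.99) and BNA6 (0.10 ± 0.16, adjusted p = 0.77) did not pass.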
